A study of Homo sapiens with 9 samples.

Results

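The 33 genes described here code for lysosomal hydrolases, lysosomal membrane proteins and their soluble partners, vacuolar ATPase subunits, autophagy proteins and the transcription factor TFEB. They were taken as a list of gene symbols, drawn up with earlier results of these data known, and found by their Ensembl identifiers among the 58233 gene identifiers of the count files. All 33 passed the filter on low counts that left 15440 genes for testing. RNA-seq had been done on UPCI-SCC-040, a squamous carcinoma line from the tongue, in 9 libraries. Cells received 5 ng/ml TGF-β1 for 48 h (3 libraries) or for 72 h (3 libraries), in medium that lacked serum and penicillin/streptomycin. The 3 control libraries came from cells with no TGF-β1, labelled 0 h. Replicates 1, 2 and 3 of each group were passages 12, 13 and 8 of this 1 line, so p-values measure the spread between these passages. The routine growth medium held serum, and the labels do not say that the controls were kept without it. TGF-β1, loss of serum and time in culture therefore cannot be told apart in any comparison with control.

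Lysosomes are acidic organelles that break down proteins, glycans and lipids delivered by endocytosis and by autophagy. A vacuolar ATPase pumps protons into them, cathepsins and other hydrolases digest the cargo, and heavily glycosylated membrane proteins such as LAMP1 and LAMP2 line the wall. In macroautophagy a double membrane closes around cytoplasm or a tagged cargo, with LC3 and GABARAP proteins on the membrane and receptors such as SQSTM1 holding the cargo, and then fuses with the lysosome. Many of these genes share a promoter element named CLEAR, which has the letters CACGTG at its core and is bound by TFEB and its relatives TFE3 and MITF. TFEB is held in the cytoplasm when mTORC1 is active at the lysosome and enters the nucleus when nutrients are scarce, so its mRNA level is not a measure of its activity.

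RefSeq promoter windows (GRCh38.p14, 250 bases before to 50 after the gene's start) were at hand for 24 of the 33 genes, the others being CTSB, CTSK, CTSS, HEXA, ASAH1, LAMP2, PSAP, ATP6V1H and UVRAG. The letters CACGTG, which read the same on both strands, were in the windows of 8 of these 24 genes (33.3%), against 8.78% of all 27305 genes with a window and 11.1% of the tested genes with one. The longer TCACGTGA, which contains CACGTG, was in 5 of the 24 windows (20.8%), against 1.18% of all genes. Since CLEAR is known from genes of this kind, these shares describe the list and are not a result of the RNA-seq. The stretches before the start are shown for the 8 genes because they are the ones that hold this element, and capitals mark each CACGTG. Each run is on the gene's own strand and ends at the base before the RefSeq start, from which positions are counted. The strand was checked by finding bases shortly after the start in a GENCODE v29 transcript of the gene, and only for GAA were they not found. That start need not be the end of the gene in GENCODE v29, whose coordinates are given with the single genes below. The runs of CTSA, CTSF and CTSD lie wholly within the GENCODE gene, and those of NEU1, GAA and ATP6V0D1 partly. The coordinates are chr13:113297039-113297238 (plus strand) for LAMP1, chr19:7522524-7522623 (plus) for MCOLN1, chr16:67481158-67481257 (minus) for ATP6V0D1, chr6:31862822-31862971 (minus) for NEU1, chr17:80101481-80101580 (plus) for GAA, chr20:45891235-45891334 (plus) for CTSA, chr11:66568607-66568756 (minus) for CTSF and chr11:1763928-1764027 (minus) for CTSD. The last capital of LAMP1 opens a match that runs across the start.
LAMP1: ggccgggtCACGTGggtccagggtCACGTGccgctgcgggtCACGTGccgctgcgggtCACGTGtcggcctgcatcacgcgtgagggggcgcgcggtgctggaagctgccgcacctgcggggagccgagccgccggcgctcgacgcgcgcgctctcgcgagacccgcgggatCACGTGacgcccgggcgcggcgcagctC
MCOLN1: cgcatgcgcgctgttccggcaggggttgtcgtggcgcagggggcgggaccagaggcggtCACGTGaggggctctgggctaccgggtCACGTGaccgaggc
ATP6V0D1: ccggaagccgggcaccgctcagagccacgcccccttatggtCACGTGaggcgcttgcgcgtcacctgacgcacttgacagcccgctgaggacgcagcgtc
NEU1: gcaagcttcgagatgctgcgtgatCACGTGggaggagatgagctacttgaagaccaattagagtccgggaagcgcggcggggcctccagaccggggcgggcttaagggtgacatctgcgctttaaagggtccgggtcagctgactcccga
GAA: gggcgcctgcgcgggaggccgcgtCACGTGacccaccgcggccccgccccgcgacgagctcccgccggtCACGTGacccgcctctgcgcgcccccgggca
CTSA: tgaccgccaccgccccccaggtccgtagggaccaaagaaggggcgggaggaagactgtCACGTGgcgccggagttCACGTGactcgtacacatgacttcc
CTSF: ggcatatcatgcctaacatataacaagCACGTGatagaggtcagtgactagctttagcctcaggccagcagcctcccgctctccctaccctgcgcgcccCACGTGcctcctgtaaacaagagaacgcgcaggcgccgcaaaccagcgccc
CTSD: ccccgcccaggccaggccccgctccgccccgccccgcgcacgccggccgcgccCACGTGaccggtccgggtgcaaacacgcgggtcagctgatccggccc
LAMP1 held 6 matches in its window, whereas CTSA, CTSF, GAA and MCOLN1 held 2 each and ATP6V0D1, CTSD and NEU1 held 1 each. Counting the base before the start as -1, the match nearest the start began at position -14 in MCOLN1, -25 in CTSA, -31 in GAA, -47 in CTSD, -51 in CTSF, -59 in ATP6V0D1 and -126 in NEU1. A match is a description of the letters and not a bound site. Of the 8 genes with the letters, 7 passed the test as higher at 72 h (CTSD did not) and 3 at 48 h, against 10 and 8 of the 16 genes whose windows lack them. Among all genes tested, 20.4% were higher at 72 h and 14.9% at 48 h. A link between the letters and the calls was not tested.

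The libraries held 12544690 to 20438727 counts. Counts of the 33 genes summed to 0.363% to 0.477% of a library at 48 h, 0.446% to 0.591% at 72 h and 0.264% to 0.296% in controls. In these bulk samples fewer cells of one type and less RNA per cell cannot be told apart. The labelled cell type was checked on keratins, TP63, desmosomal and other squamous genes, and all 11 reached at least 1 CPM (counts per 1000000, on scaled library sizes). They summed to 27150 to 35838 CPM at 48 h, 18308 to 27978 at 72 h and 12319 to 22071 in controls. Of 11 macrophage and leukocyte markers, whose cells are rich in cathepsins S and H, 8 stayed under 1 CPM in every library, TYROBP was at 0 throughout, and the list summed to at most 2.52 CPM at 48 h, 2.53 at 72 h and 3.93 in controls. Of 9 fibroblast genes, 6 stayed under 1 CPM in every library, and the list summed to 43.8 to 115 CPM at 48 h, 36.7 to 133 at 72 h and 13.5 to 18.2 in controls. The part of these markers in the results was not tested. One library stood apart from its group: replicate 3 at 72 h gave 1.54% of its counts to MALAT1, a nuclear noncoding RNA, against 0.437% and 0.409% in replicates 1 and 2, and 1.00% to ribosomal protein genes, against 1.52% and 1.76%. Values without this library are given beside the results at 72 h whose call it changes or whose value it moves by much.

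More of the lysosome and autophagy genes were called higher than lower after TGF-β1, at both times. At 48 h against control, 14 of the 33 (42.4%) were higher and 1 was lower at an adjusted p under 0.05 (edgeR's quasi-likelihood F test, Benjamini-Hochberg over all 15440 genes), against a background of 14.9% higher and 16% lower among all genes tested. At 72 h against control, 21 of the 33 (63.6%) were higher and none was lower, against 20.4% higher and 19.4% lower among all genes. DESeq2 gave 18 higher at 48 h and 21 at 72 h, and it gave 2 lower at 48 h and 0 at 72 h. It also called more of all 15440 genes in either direction, 5365 at 48 h and 6533 at 72 h, against 4779 and 6152 with edgeR. At an unadjusted p under 0.05, 22 of the 33 passed at 48 h and 23 at 72 h, against 43.3% and 49.7% of all genes. The median log2 fold change of the 33 genes was 0.67 at 48 h, with a median of -0.00 over all genes, and 0.70 at 72 h, with 0.03 over all genes. Both comparisons use the same 3 control libraries.

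The count at 48 h leaned on single libraries. It was 8 without control replicate 3, 9 without control replicate 2 or without 48 h replicate 1, 10 without control replicate 1, 11 without 48 h replicate 3 and 13 without 48 h replicate 2, while over all genes the 4779 calls at 48 h shrank to between 2631 and 3920. The count at 72 h ranged from 16 to 21 in the same check. With passage as a block, 17 genes were higher at 48 h and 21 at 72 h, while the calls over all genes in either direction numbered 5113 and 6465.

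In levels, 22 of the 33 genes had all 3 of their 48 h values above all 3 control values (66.7%, against 25.6% of all genes), and 23 had all 3 of their 72 h values above (against 27.3%). In the other direction, 3 genes had all 48 h values below all control values (against 28.1% of all genes), and 3 had all 72 h values below (against 27.7%). Within passages, 24 genes were higher than the control of the same passage in 3 of 3 passages at 48 h (31.8% of all genes) and likewise 24 at 72 h (33.3% of all genes). The 14 genes that rose at both times were WIPI1, SQSTM1, CTSF, NPC1, GAA, TFEB, NEU1, CTSB, CTSL, PSAP, CTSV, TPP1, NPC2 and LAMP2, where 12.9% of all genes rose at both. A further 7 passed the test at 72 h and missed it at 48 h: LIPA, MCOLN1, SCARB2, LAMP1, CTSA, HEXA and ATP6V0D1. GUSB fell at 48 h, and the remaining 11 passed at neither time.

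**Figure D1:**
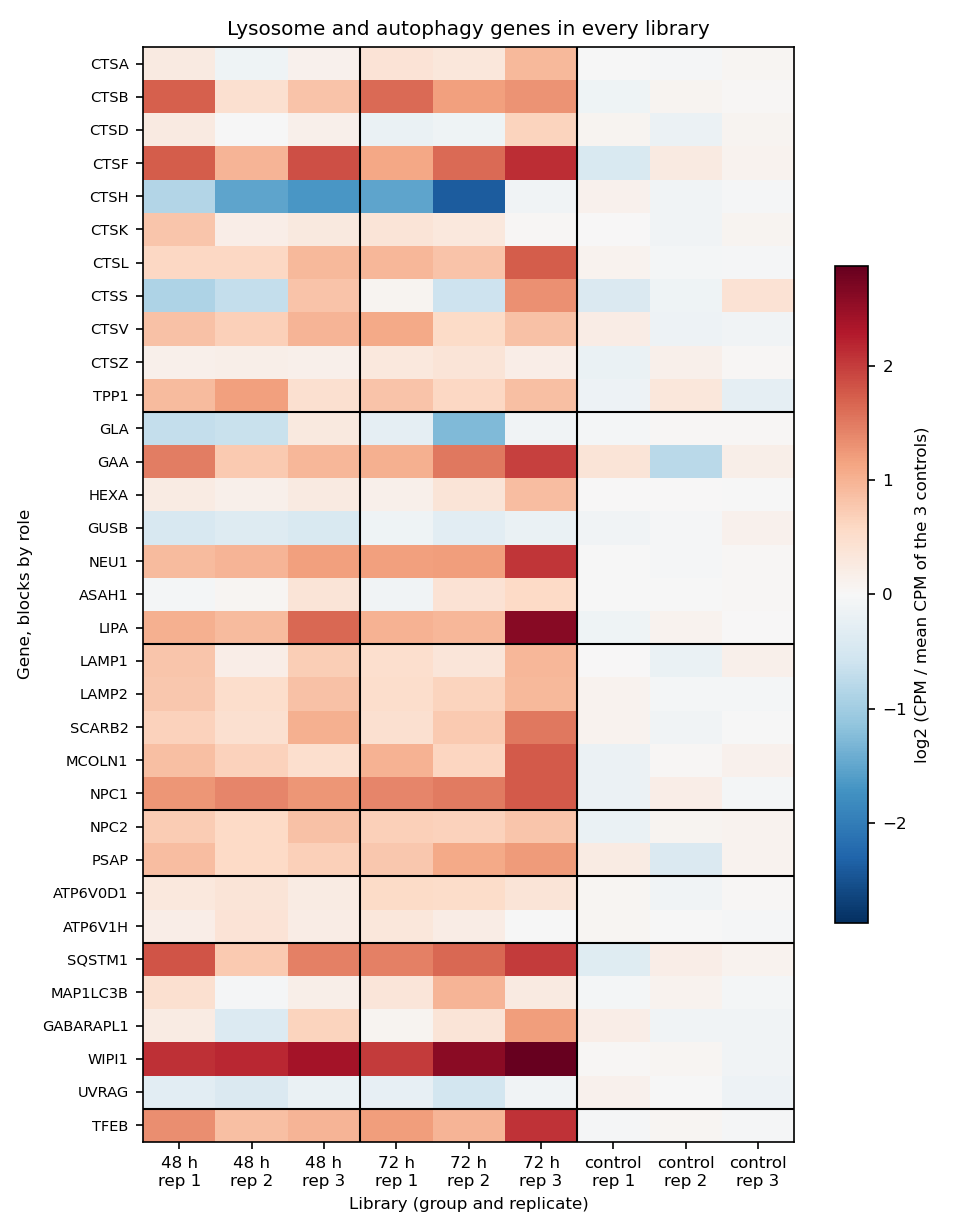
Level of each of the 33 genes (rows, in blocks by role) in each of the 9 libraries (columns), as log2 of the CPM over the mean CPM of the 3 controls, with red above and blue below the control mean. WIPI1, SQSTM1, CTSF, NEU1, NPC1 and TFEB are red in all 6 treated libraries, CTSH is the bluest row, and 72 h replicate 3 is the highest of the 9 libraries in 20 of the 33 rows.

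**Figure D2:**
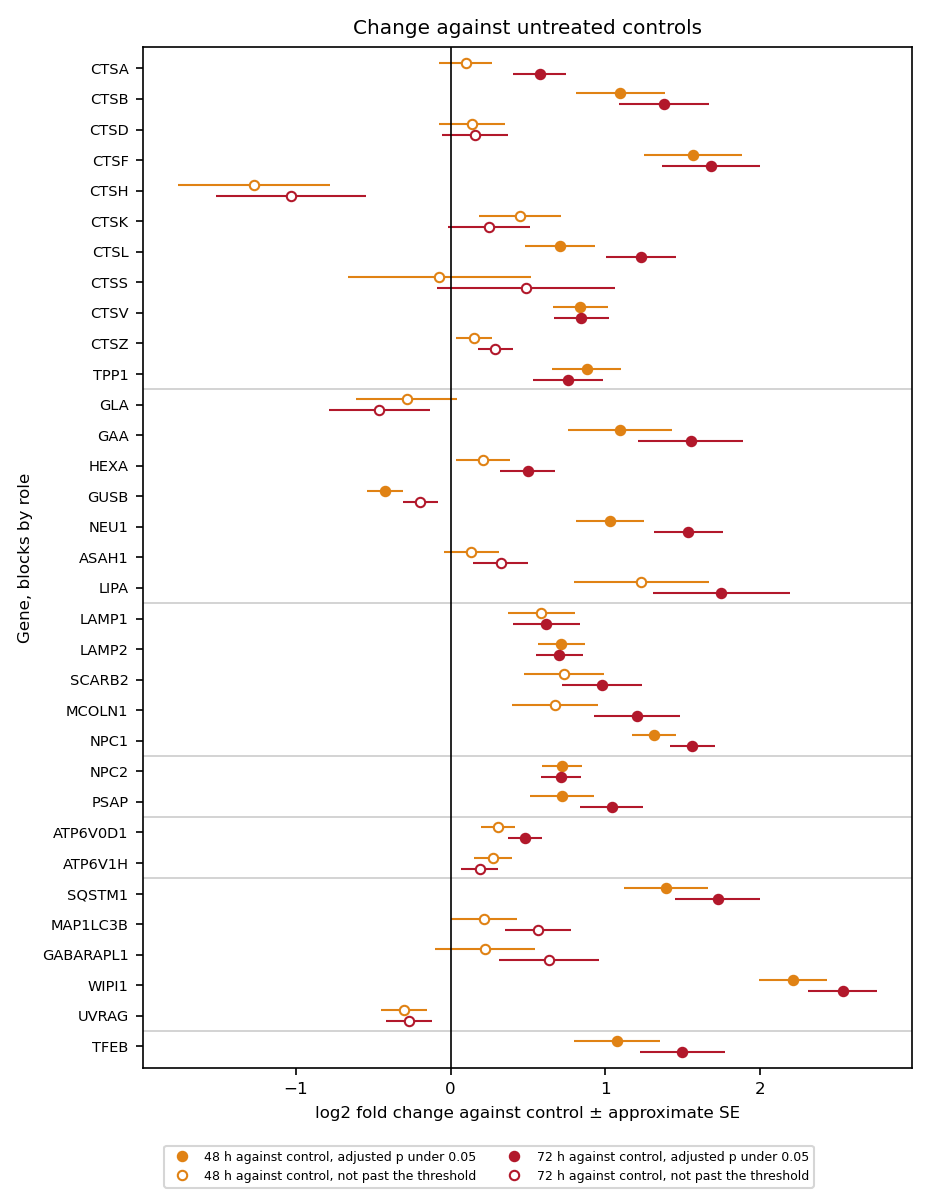
log2 fold change against control ± approximate SE for each gene at 48 h (orange) and at 72 h (red), with n = 3 libraries a group. Filled points passed an adjusted p of 0.05 (14 higher and 1 lower at 48 h, 21 higher at 72 h) and open points did not.

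TFEB, the transcription factor of the list (ENSG00000112561, GRCh38 chr6:41683978-41736259, minus strand), was higher at both times. It had 17.9, 12.9 and 13.9 CPM at 48 h, 16.2, 13.99 and 29.9 CPM at 72 h, and 6.86, 7.40 and 6.94 CPM in controls, in the order of replicates 1, 2 and 3. Every treated library lay above every control, and 72 h replicate 3 lay far above the rest. For TFEB the log2 fold change was 1.08 ± 0.28 (SE) at 48 h (adjusted p = 0.0168) and 1.50 ± 0.28 at 72 h (adjusted p = 0.00304). Without 72 h replicate 3 the second was 1.10 (adjusted p = 0.00155). The call at 48 h was lost, at adjusted p between 0.053 and 0.0663, when any 1 control or 48 h replicate 1 was left out.

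Of the 11 proteases, 5 were higher at 48 h and 6 at 72 h, with a median log2 fold change of 0.45 and 0.58, and none was lower. The shares of all genes tested were 14.9% higher and 16% lower at 48 h, and 20.4% higher and 19.4% lower at 72 h. They are the background for this role and for each role below, whose counts are of few genes. The 5 at 48 h fell to 2 without control replicate 1 or 3 and to 3 without control replicate 2 or without 48 h replicate 1 or 2. Without 72 h replicate 3 the protease median at 72 h was 0.37, which is the value of CTSA, with 5 higher and 1 lower. The cysteine cathepsins F, B, L and V rose, whereas cathepsin D, the main aspartic protease of the lysosome, passed the test at neither time.

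CTSF (ENSG00000174080, chr11:66563463-66568841, minus strand), a cysteine cathepsin with a long propeptide, rose the most of the proteases. It had 60.9, 35.7 and 65.5 CPM at 48 h, 39.1, 56.7 and 79.9 CPM at 72 h, and 13.4, 21.8 and 19.4 CPM in controls. The treated and control values did not overlap at either time. CTSF had a log2 fold change of 1.57 ± 0.32 at 48 h (adjusted p = 0.00705) and 1.68 ± 0.32 at 72 h (adjusted p = 0.00383). Without 72 h replicate 3 the 72 h value of CTSF was 1.40 (adjusted p = 0.00629).

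CTSB, a cysteine cathepsin often raised in carcinomas, had 559, 232 and 297 CPM at 48 h, 523, 386 and 412 CPM at 72 h, and 156, 179 and 173 CPM in controls. Replicate 1 was the highest at both times, and no treated library reached down to a control. Against control, the log2 fold change of CTSB was 1.10 ± 0.29 at 48 h (adjusted p = 0.0192) and 1.38 ± 0.29 at 72 h (adjusted p = 0.00562). Without 48 h replicate 1 the value at 48 h was 0.64 (adjusted p = 0.0458). Leaving out any 1 control ended the call at 48 h (adjusted p 0.0596 to 0.071).

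CTSL (ENSG00000135047, chr9:87725519-87731393, plus strand), a broadly expressed cysteine cathepsin, had 44.3, 44.2 and 55.7 CPM at 48 h, 57.0, 52.1 and 98.0 CPM at 72 h, and 31.3, 28.1 and 28.6 CPM in controls. All treated values were above all controls, and 72 h replicate 3 was the highest. For CTSL the log2 fold change was 0.71 ± 0.23 at 48 h (adjusted p = 0.0378), a call lost when any 1 of the 6 libraries was left out (adjusted p 0.0579 to 0.115). At 72 h it was 1.23 ± 0.23 (adjusted p = 0.00294), and 0.90 without replicate 3 (adjusted p = 0.0011).

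CTSV (ENSG00000136943, chr9:97029679-97039643, minus strand), a close relative of CTSL found mainly in thymus, testis and cornea, had the highest CPM of the proteases in controls. Its values were 428, 383 and 469.7 CPM at 48 h, 511, 349 and 427 CPM at 72 h, and 279, 215 and 222 CPM in controls. The change was much the same at both times, with a log2 fold change of 0.84 ± 0.18 at 48 h (adjusted p = 0.00748) and 0.85 ± 0.18 at 72 h (adjusted p = 0.00525).

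TPP1 (ENSG00000166340, chr11:6612763-6619485, minus strand), a serine protease that trims tripeptides from protein ends, had 15.3, 18.6 and 11.1 CPM at 48 h, 14.3, 12.3 and 14.9 CPM at 72 h, and 7.40, 10.2 and 6.87 CPM in controls. Its lowest 48 h and 72 h values stood just above the highest control. TPP1 had a log2 fold change of 0.88 ± 0.22 at 48 h (adjusted p = 0.0162) and 0.76 ± 0.22 at 72 h (adjusted p = 0.0228). The call was lost without 48 h replicate 1 or 2 or control replicate 1 or 3 at 48 h (adjusted p 0.0522 to 0.0659), and without 72 h replicate 1 or control replicate 1 or 3 at 72 h (adjusted p 0.0501 to 0.0876).

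CTSD (ENSG00000117984, chr11:1752752-1764573, minus strand) had 138, 114 and 127 CPM at 48 h, 100.1, 105 and 179.8 CPM at 72 h, and 120.5, 103 and 121 CPM in controls. The groups overlapped, and 72 h replicate 3 was the highest library. Against control, the log2 fold change of CTSD was 0.14 ± 0.21 at 48 h (adjusted p = 0.657) and 0.16 ± 0.21 at 72 h (adjusted p = 0.577), and without 72 h replicate 3 the 72 h value changed sign to -0.16 (adjusted p = 0.365). Another annotated gene on the same strand, AC068580.4, covers 41.7% of its exon bases and had 50 counts over the 9 libraries, against 18356 for CTSD. Reads in the shared bases may be missing from the CTSD count, which also limits its TPM. CTSA (ENSG00000064601, chr20:45890144-45898820, plus strand), a carboxypeptidase that also shields NEU1 in a complex, rose at 72 h by 0.58 ± 0.17 (adjusted p = 0.0232) and had 0.10 ± 0.17 at 48 h (adjusted p = 0.694). Without 72 h replicate 3 the value of CTSA at 72 h was 0.37 (adjusted p = 0.0511). The CTSA call was lost without 72 h replicate 3 or any 1 control (adjusted p 0.0511 to 0.0763). Of the exon bases of CTSA, 200 overlap PLTP on the opposite strand, which had 6846 counts over the 9 libraries against 7364.

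CTSH, a cysteine cathepsin with aminopeptidase activity, had the most negative log2 fold change of the list, -1.27 ± 0.49 at 48 h (adjusted p = 0.0752) and -1.03 ± 0.49 at 72 h (adjusted p = 0.116). It had 2.34, 1.47 and 1.30 CPM at 48 h, 1.46, 0.796 and 3.88 CPM at 72 h, and 4.51, 3.91 and 4.08 CPM in controls. All 6 treated values were below all 3 controls, by a small margin in 72 h replicate 3. Without that library CTSH passed the test at 72 h (-1.87, adjusted p = 0.00309). CTSK, CTSS and CTSZ passed at neither time, with log2 fold changes between -0.07 and 0.49.

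Among the 7 glycosidases and lipid hydrolases, 2 rose and 1 fell at 48 h, and 4 rose at 72 h, with a median log2 fold change of 0.21 and 0.50. The rise at 48 h counted 1 gene instead of 2 without control replicate 2 or 3 or without 48 h replicate 1 or 3, and the 4 at 72 h became 2 without control replicate 1. Without 72 h replicate 3 the median at 72 h was 0.26, which is the value of HEXA, and 3 rose.

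NEU1 (ENSG00000204386, chr6:31857659-31862906, minus strand), the lysosomal sialidase, had 73.7, 76.8 and 88.4 CPM at 48 h, 88.3, 89.5 and 162 CPM at 72 h, and 39.0, 38.2 and 39.8 CPM in controls. The 3 controls were close together, and every treated library was far above them. For NEU1 the log2 fold change was 1.03 ± 0.22 at 48 h (adjusted p = 0.00782) and 1.54 ± 0.22 at 72 h (adjusted p = 0.00105). Without 72 h replicate 3 the 72 h value was 1.19 (adjusted p = 0.000161).

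LIPA (ENSG00000107798, chr10:89213569-89414557, minus strand), the acid lipase that frees cholesterol and fatty acids from lipoprotein lipids, had 133, 122 and 204 CPM at 48 h, 131, 126 and 399 CPM at 72 h, and 60.1, 69.8 and 65.1 CPM in controls. Replicate 3 was the highest at both times, and no treated value overlapped a control. LIPA had a log2 fold change of 1.23 ± 0.44 at 48 h (adjusted p = 0.0615, or 0.0278 with passage as a block) and 1.75 ± 0.44 at 72 h (adjusted p = 0.0142). Without 72 h replicate 3 it was 0.99 (adjusted p = 0.0037), and without control replicate 1 the call at 72 h was lost (adjusted p = 0.0531). IFIT2, an interferon-induced gene on the opposite strand with 44885 counts over the 9 libraries against 21402 for LIPA, shares 65 bases of exon with it.

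GAA (ENSG00000171298, chr17:80101556-80119879, plus strand), the acid glucosidase that degrades glycogen, had 31.4, 19.1 and 22.2 CPM at 48 h, 23.1, 32.5 and 44.4 CPM at 72 h, and 14.7, 6.65 and 12.8 CPM in controls. The lowest control was replicate 2, and the groups did not overlap. Against control, the log2 fold change of GAA was 1.10 ± 0.34 at 48 h (adjusted p = 0.0354) and 1.55 ± 0.34 at 72 h (adjusted p = 0.00687). Without 72 h replicate 3 the 72 h value of GAA was 1.30 (adjusted p = 0.0147). The call at 48 h was lost without 48 h replicate 1 or 3 or control replicate 2 or 3 (adjusted p 0.0646 to 0.123).

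HEXA, the alpha subunit of beta-hexosaminidase, had 32.1, 30.3 and 32.8 CPM at 48 h, 30.1, 35.6 and 50.7 CPM at 72 h, and 27.6, 27.6 and 27.0 CPM in controls. All treated values were above the controls, most of them by a small margin. For HEXA the log2 fold change was 0.21 ± 0.18 at 48 h (adjusted p = 0.393) and 0.50 ± 0.18 at 72 h (adjusted p = 0.0464). The call at 72 h was lost on leaving out any library but 72 h replicate 1 (adjusted p 0.0502 to 0.127), and without 72 h replicate 3 the value was 0.26 (adjusted p = 0.127).

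GUSB (ENSG00000169919, chr7:65960684-65982314, minus strand), the beta-glucuronidase that is also used as a reference gene, had 25.7, 27.6 and 26.0 CPM at 48 h, 32.8, 29.01 and 31.3 CPM at 72 h, and 33.4, 34.5 and 38.8 CPM in controls. The groups did not overlap, and the 48 h values were the lowest. It fell by 0.42 ± 0.12 on the log2 scale at 48 h (adjusted p = 0.0217), a call lost without 48 h replicate 1 or 3 or control replicate 2 or 3 (adjusted p 0.0522 to 0.0914). At 72 h the log2 fold change was -0.19 ± 0.12 (adjusted p = 0.203). ASAH1, the acid ceramidase, and GLA, the alpha-galactosidase, passed at neither time, with log2 fold changes of 0.13 ± 0.18 and -0.28 ± 0.33 at 48 h and of 0.32 ± 0.18 and -0.46 ± 0.33 at 72 h.

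All 5 membrane proteins and transporters rose at 72 h (median log2 fold change 0.98), and 2 of them, NPC1 and LAMP2, at 48 h (median 0.72). The 5 at 72 h became 3 without control replicate 2, and 4 without control replicate 1 or 3 or 72 h replicate 1 or 3. Without 72 h replicate 3 the median at 72 h was 0.61, which is the value of SCARB2. NPC1 and LAMP2 kept both calls under each of the 13 alternative settings tried for each comparison.

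NPC1 (ENSG00000141458, chr18:23506184-23586898, minus strand), which exports cholesterol from the lysosome, had 174, 192 and 173 CPM at 48 h, 192, 203 and 245 CPM at 72 h, and 64.2, 82.7 and 69.5 CPM in controls. Every treated library held more than every control by a wide margin. NPC1 had a log2 fold change of 1.32 ± 0.14 at 48 h (adjusted p = 0.000624) and 1.56 ± 0.14 at 72 h (adjusted p = 0.000223), a 2.49-fold and a 2.96-fold rise. NPC1 shares 604 bases of exon with RMC1 on the opposite strand, which had 2187 counts over the 9 libraries against 23289.

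LAMP2 (ENSG00000005893, chrX:120427827-120469365, minus strand), which takes part in membrane fusion and in chaperone-mediated autophagy, had 283, 236 and 299 CPM at 48 h, 234, 258 and 318 CPM at 72 h, and 177, 161 and 159.8 CPM in controls. The treated and control ranges were apart, while the 48 h and 72 h ranges lay over each other. Against control, the log2 fold change of LAMP2 was 0.72 ± 0.15 at 48 h (adjusted p = 0.00788) and 0.70 ± 0.15 at 72 h (adjusted p = 0.0062).

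LAMP1 (ENSG00000185896, chr13:113297241-113323672, plus strand), its partner in the lysosomal wall, had 815, 540.2 and 768 CPM at 48 h, 663, 601 and 909 CPM at 72 h, and 478, 410.5 and 525 CPM in controls. The ranges did not overlap, but 48 h replicate 2 was close to control replicate 3. For LAMP1 the log2 fold change was 0.59 ± 0.21 at 48 h (adjusted p = 0.0624, or 0.0251 with the passage block) and 0.62 ± 0.21 at 72 h (adjusted p = 0.0429). The call at 72 h was lost on leaving out any library but 72 h replicate 2 (adjusted p 0.0545 to 0.148), and without 72 h replicate 3 the log2 fold change was 0.43.

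SCARB2 (ENSG00000138760, chr4:76158733-76234536, minus strand), also called LIMP-2, carries glucocerebrosidase to the lysosome. It had 204, 177 and 260.0 CPM at 48 h, 175, 215 and 369 CPM at 72 h, and 137, 120.1 and 128 CPM in controls. The groups did not overlap, and replicate 3 was the highest at both times. SCARB2 had a log2 fold change of 0.73 ± 0.26 at 48 h (adjusted p = 0.0555, or 0.0262 with the passage block) and 0.98 ± 0.26 at 72 h (adjusted p = 0.0147), and 0.61 at 72 h without replicate 3 (adjusted p = 0.019). Without control replicate 2 the call at 72 h was lost (adjusted p = 0.0581).

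MCOLN1 (ENSG00000090674, chr19:7522626-7534009, plus strand), a calcium channel of the lysosome whose current activates TFEB through calcineurin, had 11.5, 10.0 and 8.87 CPM at 48 h, 12.7, 9.73 and 21.7 CPM at 72 h, and 5.72, 6.49 and 6.94 CPM in controls. All treated values were above all controls, and 72 h replicate 3 stood highest. Against control, the log2 fold change of MCOLN1 was 0.67 ± 0.28 at 48 h (adjusted p = 0.0918) and 1.20 ± 0.28 at 72 h (adjusted p = 0.00787), and 0.82 at 72 h without replicate 3.

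Both soluble cofactors rose at both times. NPC2 (ENSG00000119655, chr14:74476192-74494177, minus strand), which hands cholesterol to NPC1, had 201, 178 and 215 CPM at 48 h, 192, 191 and 208 CPM at 72 h, and 106, 126 and 129 CPM in controls. Its log2 fold change was 0.72 ± 0.13 at 48 h (adjusted p = 0.00372) and 0.71 ± 0.13 at 72 h (adjusted p = 0.00267). PSAP (ENSG00000197746, chr10:71816298-71851375, minus strand), the precursor of the saposins that present sphingolipids to their hydrolases, had 829, 669.7 and 728 CPM at 48 h, 772, 958 and 1051 CPM at 72 h, and 530.0, 335 and 486 CPM in controls. For both genes the treated and control values were apart. PSAP had a log2 fold change of 0.72 ± 0.20 at 48 h (adjusted p = 0.0245) and 1.04 ± 0.21 at 72 h (adjusted p = 0.004). Its call at 48 h was lost without 48 h replicate 1 or 3 or control replicate 2 or 3 (adjusted p 0.0547 to 0.0904).

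Of the 2 vacuolar ATPase subunits in the list, ATP6V0D1, which couples the membrane ring to the stalk, rose at 72 h. ATP6V0D1 (ENSG00000159720, chr16:67438014-67481237, minus strand) had 137, 144 and 131 CPM at 48 h, 162, 161 and 144 CPM at 72 h, and 115, 105 and 114 CPM in controls. The groups were apart by little, with a log2 fold change of 0.30 ± 0.11 at 48 h (adjusted p = 0.0586) and 0.48 ± 0.11 at 72 h (adjusted p = 0.00738). ATP6V1H, a regulatory subunit of the catalytic part, had 0.27 ± 0.12 at 48 h (adjusted p = 0.113) and 0.19 ± 0.12 at 72 h (adjusted p = 0.238).

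Of the 5 autophagy genes, WIPI1 and SQSTM1 rose at both times, and MAP1LC3B, GABARAPL1 and UVRAG passed at neither. The median log2 fold change of the 5 was 0.22 at 48 h and 0.64 at 72 h.

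WIPI1 (ENSG00000070540, chr17:68420948-68457513, minus strand), which binds PI3P on the forming autophagosome, had the highest fold change of the 33 genes. It had 18.9, 19.7 and 22.9 CPM at 48 h, 17.8, 26.7 and 32.3 CPM at 72 h, and 4.51, 4.61 and 4.08 CPM in controls. Controls were tight, and every treated library was several times higher. For WIPI1 the log2 fold change was 2.22 ± 0.22 at 48 h (adjusted p = 0.000492) and 2.54 ± 0.22 at 72 h (adjusted p = 0.000195), a 4.65-fold and a 5.80-fold rise. ARSG on the opposite strand covers 24.3% of its exon bases and had 146 counts over the 9 libraries, against 2512 for WIPI1.

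SQSTM1 (ENSG00000161011, chr5:179806398-179838078, plus strand), known as p62, binds ubiquitinated cargo and LC3 and is itself degraded by autophagy. It had 256, 123 and 200.2 CPM at 48 h, 199.8, 232 and 298 CPM at 72 h, and 57.5, 83.9 and 79.0 CPM in controls. The lowest treated library, 48 h replicate 2, was still above the highest control. SQSTM1 had a log2 fold change of 1.39 ± 0.27 at 48 h (adjusted p = 0.00562) and 1.73 ± 0.27 at 72 h (adjusted p = 0.00163). MRNIP on the opposite strand overlaps 20.7% of the exon bases of SQSTM1 and had 1960 counts, against 25713. MGAT4B, also on the opposite strand, shares 105 bases of exon with SQSTM1 and had 19098 counts.

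MAP1LC3B (ENSG00000140941, chr16:87383995-87404779, plus strand), the LC3 protein most used to follow autophagosomes, had 20.1, 14.1 and 16.3 CPM at 48 h, 18.3, 28.6 and 17.3 CPM at 72 h, and 13.9, 15.6 and 13.9 CPM in controls. At 48 h the groups overlapped, and at 72 h they did not, with replicate 2 the highest. Against control, the log2 fold change of MAP1LC3B was 0.22 ± 0.21 at 48 h (adjusted p = 0.469) and 0.56 ± 0.21 at 72 h (adjusted p = 0.0583), and 0.70 at 72 h without replicate 3 (adjusted p = 0.0258). Its near copy MAP1LC3B2 had 45 counts over the 9 libraries. FBXO31 on the opposite strand shares 150 bases of exon with MAP1LC3B and had 2768 counts, against 2660. GABARAPL1, a GABARAP family member that acts late in autophagosome closure, had a log2 fold change of 0.22 ± 0.32 at 48 h (adjusted p = 0.634) and 0.64 ± 0.32 at 72 h (adjusted p = 0.142). Without 72 h replicate 3 the 72 h value of GABARAPL1 was 0.24 (adjusted p = 0.490). UVRAG, a Beclin 1 partner, had -0.30 ± 0.15 at 48 h (adjusted p = 0.148) and -0.27 ± 0.15 at 72 h (adjusted p = 0.168).

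**Figure D3:**
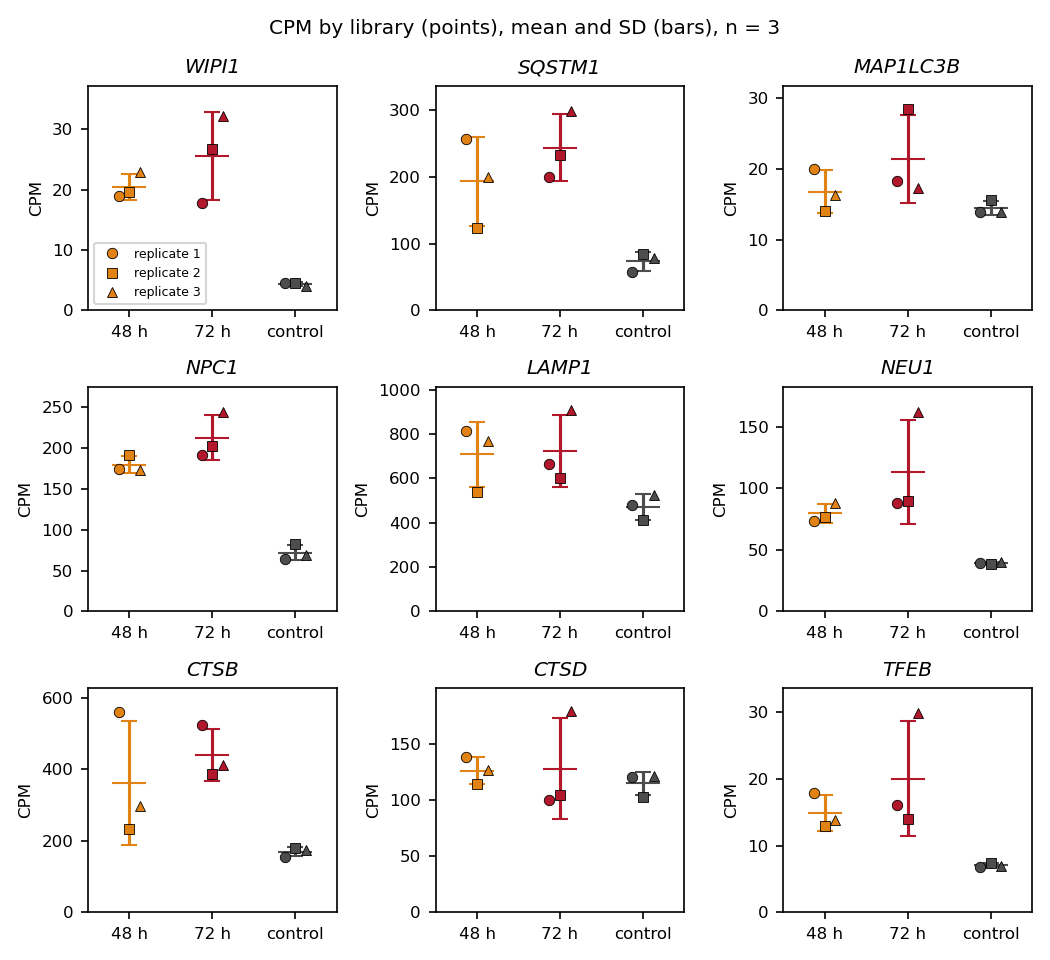
CPM of 9 of the genes in each library (points, with the symbol giving the replicate), with the group mean and SD as bars (n = 3 a group). WIPI1, SQSTM1, NPC1, LAMP1, NEU1, CTSB and TFEB have all treated points above all control points, whereas CTSD overlaps with control at both times and MAP1LC3B at 48 h.

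At 72 h against 48 h no gene passed the test (0% of the 15440, edgeR's quasi-likelihood test), so none of the 33 did. At an unadjusted p under 0.05, 3 of the 33 passed, against 8.95% of all genes, and DESeq2 called 50 genes of which 0 were among the 33. The 3 were CTSA with 0.48 ± 0.17 (adjusted p = 0.521), CTSL with 0.52 ± 0.22 (adjusted p = 0.544) and NEU1 with 0.51 ± 0.22 (adjusted p = 0.544). The median log2 fold change of the 33 genes was 0.24, with 0.02 over all genes, and it was 0.02 without 72 h replicate 3. In CTSA, CTSZ, GUSB and NPC1 all 3 of the 72 h values were above all 3 of the 48 h values, where 7.09% of all genes showed this, and in none were they all below, where 5.16% of all genes did. For the 7 genes that passed against control at 72 h and not at 48 h, the difference between the times did not pass the test.

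Replicate 3 at 72 h was the highest of all 9 libraries in 20 of the 33 genes, against 24.7% of all genes, and the highest of the 3 libraries at 72 h in 25 of the 33, against 42% of all genes. The 33 genes summed to 4854, 3761 and 4627 CPM at 48 h, 4576, 4542 and 5981 CPM at 72 h, and 2812, 2531 and 2814 CPM in controls. Replicate 3 is thus the top library of the sum, and every treated library is above every control in it. The median SD of log2 CPM over the 33 genes was 0.191 at 48 h, 0.359 at 72 h and 0.108 in controls, against 0.243, 0.308 and 0.151 over all genes. LIPA moved the most among the genes called at 72 h when this library was left out. The part of this library's MALAT1 and ribosomal protein shares in these values was not tested.

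**Figure D4:**
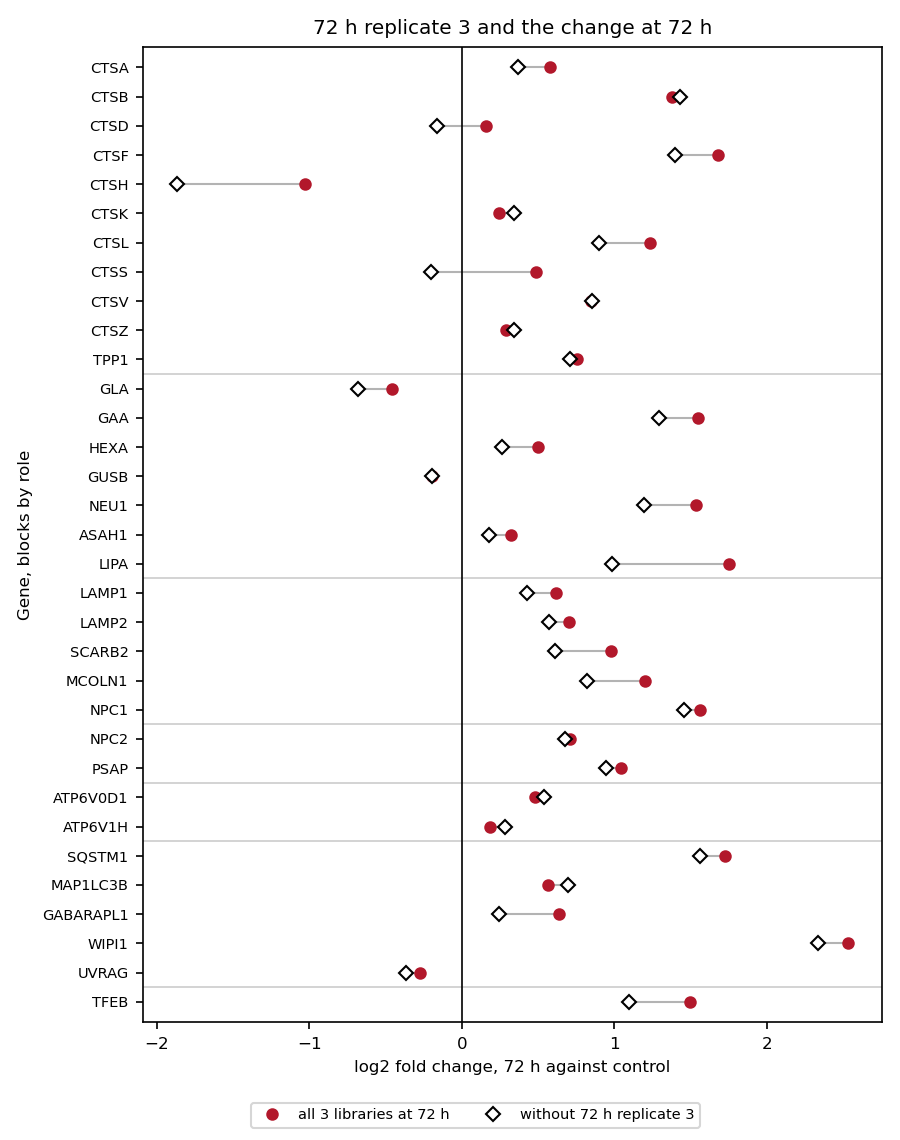
log2 fold change at 72 h against control for each of the 33 genes with all 3 libraries at 72 h (red circles) and without 72 h replicate 3 (open diamonds). LIPA is at 0.99 without it against 1.75 with it, CTSD and CTSS cross 0, and CTSH is at -1.87 without it against -1.03 with it.

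Per exon length, the levels of the 33 genes spanned a wide range. In controls PSAP stood highest with 498 ± 119 TPM (transcripts per 1000000; SD, n = 3), and LAMP1 followed with 294 ± 38.7 TPM. The difference between these 2 genes was larger than the SD of either. CTSV had 182 ± 28.5 TPM, NPC2 156 ± 15.3 TPM and CTSD 132 ± 13.6 TPM in controls, where CTSV and NPC2 differed by less than the SD of CTSV. At the low end TFEB had 4.47 ± 0.125 TPM, CTSH 2.53 ± 0.218 TPM and CTSS 1.09 ± 0.330 TPM in controls, the last 2 being proteases known for their role in leukocytes. At 72 h PSAP reached 1093 ± 244 TPM, LIPA 172 ± 132 TPM against 47.3 ± 2.93 TPM in controls, and SQSTM1 122 ± 32.7 TPM against 34.3 ± 6.24 TPM in controls. The length is that of all annotated exons of a gene joined, retained introns included, which limits comparisons of level between genes.

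The other genes of the pathway were counted in 9 lists of 220 genes in all, of which 198 were tested. Of these, 59 (29.8%) rose and 11 (5.56%) fell at 48 h, and 85 (42.9%) rose and 8 (4.04%) fell at 72 h. The 11 that fell at 48 h became 5, 3 and 7 without control replicates 1, 2 and 3 and 4 without 48 h replicate 1. Over all genes tested, 14.9% rose and 16% fell at 48 h, and 20.4% rose and 19.4% fell at 72 h. These shares are the background for each list below.

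Among 38 other lysosomal hydrolases tested, 9 rose and 1 fell at 48 h and 20 rose and 1 fell at 72 h (median log2 fold change 0.30 and 0.56). The 1 that fell at 48 h became 0 without control replicate 2 or 48 h replicate 1, and the 1 at 72 h became 2 without any 1 library at 72 h. IDUA, which cleaves iduronic acid from heparan and dermatan sulfate, averaged 6.60 ± 1.09 CPM at 48 h, 11.5 ± 4.55 CPM at 72 h and 1.84 ± 0.448 CPM in controls (SD, n = 3 each). Its log2 fold change was 1.85 ± 0.32 at 48 h (adjusted p = 0.00322) and 2.64 ± 0.32 at 72 h (adjusted p = 0.000558). ARSA, the sulfatase of sulfatides, rose by 1.50 ± 0.24 at 48 h and 1.98 ± 0.24 at 72 h. PPT2, a thioesterase, rose by 0.69 ± 0.20 at 48 h and 1.26 ± 0.20 at 72 h, and its call at 48 h was lost without 48 h replicate 3 or any 1 control.

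Of 30 other lysosomal membrane proteins tested, 15 rose at 48 h and 19 at 72 h (median 0.57 and 0.79), and none fell. ABCA2, a lipid transporter, averaged 27.2 ± 4.89 CPM at 48 h, 39.9 ± 9.45 CPM at 72 h and 9.71 ± 2.32 CPM in controls, with a log2 fold change of 1.49 ± 0.24 at 48 h and 2.04 ± 0.24 at 72 h. SLC17A5, the sialic acid exporter that works on the product of NEU1, rose by 1.30 ± 0.33 at 48 h, a call lost without control replicate 2, and by 2.10 ± 0.33 at 72 h. OSTM1, the partner of the chloride exchanger ClC-7, rose by 1.56 ± 0.18 at 48 h and 1.68 ± 0.18 at 72 h.

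Of 18 other vacuolar ATPase genes tested, 3 rose and 2 fell at 48 h and 5 rose and none fell at 72 h (median 0.29 and 0.32). Among all genes, 14.9% rose and 16% fell at 48 h, near the shares in this list, and 20.4% rose and 19.4% fell at 72 h. The 2 that fell became 0 without control replicate 1 or 2 or 48 h replicate 1 and 1 without any other library, and the 5 that rose became 3 without any 1 control. ATP6AP1, an assembly factor of the pump, rose by 0.76 ± 0.12 at 48 h and 0.99 ± 0.12 at 72 h. ATP6V0E1 rose by 0.60 ± 0.11 at 48 h and 0.73 ± 0.11 at 72 h. ATP6V1G1 rose by 0.48 ± 0.14 at 48 h and 0.70 ± 0.14 at 72 h, and its call at 48 h was lost without 48 h replicate 1 or 3 or control replicate 2 or 3.

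Of 31 genes of autophagosome formation tested, 14 rose and 3 fell at 48 h and 15 rose and 2 fell at 72 h (median 0.23 and 0.41). The 14 became 9 without control replicate 3, the 3 that fell became 0 or 1 without any 1 library, and the 2 that fell at 72 h became 0 without control replicate 1 and 1 without control replicate 3. VMP1, a scramblase of the endoplasmic reticulum whose locus also holds the miR-21 gene, averaged 809 ± 315 CPM at 48 h, 626 ± 206 CPM at 72 h and 186 ± 44.7 CPM in controls. Its log2 fold change was 2.12 ± 0.33 at 48 h (adjusted p = 0.0024) and 1.75 ± 0.33 at 72 h (adjusted p = 0.00346). WDR45, from the same protein family as WIPI1, rose by 1.31 ± 0.20 at 48 h and 1.66 ± 0.20 at 72 h. TMEM41B, the partner scramblase of VMP1, rose by 1.30 ± 0.16 at 48 h and 1.27 ± 0.16 at 72 h.

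Of 14 selective autophagy receptors tested besides SQSTM1, 6 rose and 1 fell at 48 h and 7 rose and 1 fell at 72 h (median 0.55 and 0.57). The 7 became 4 without control replicate 3, and the 1 that fell at 72 h became 2 without 72 h replicate 2. OPTN, the receptor optineurin, averaged 176 ± 15.4 CPM at 48 h, 188 ± 41.5 CPM at 72 h and 72.9 ± 13.2 CPM in controls, with a log2 fold change of 1.27 ± 0.19 at 48 h and 1.37 ± 0.19 at 72 h. NBR1, which acts beside SQSTM1, rose by 0.80 ± 0.14 at 48 h and 0.99 ± 0.14 at 72 h. PHB2, a mitochondrial inner membrane protein that serves as a receptor in mitophagy, fell by 0.92 ± 0.22 at 48 h, a call lost without control replicate 2, and by 0.95 ± 0.22 at 72 h.

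**Figure D5:**
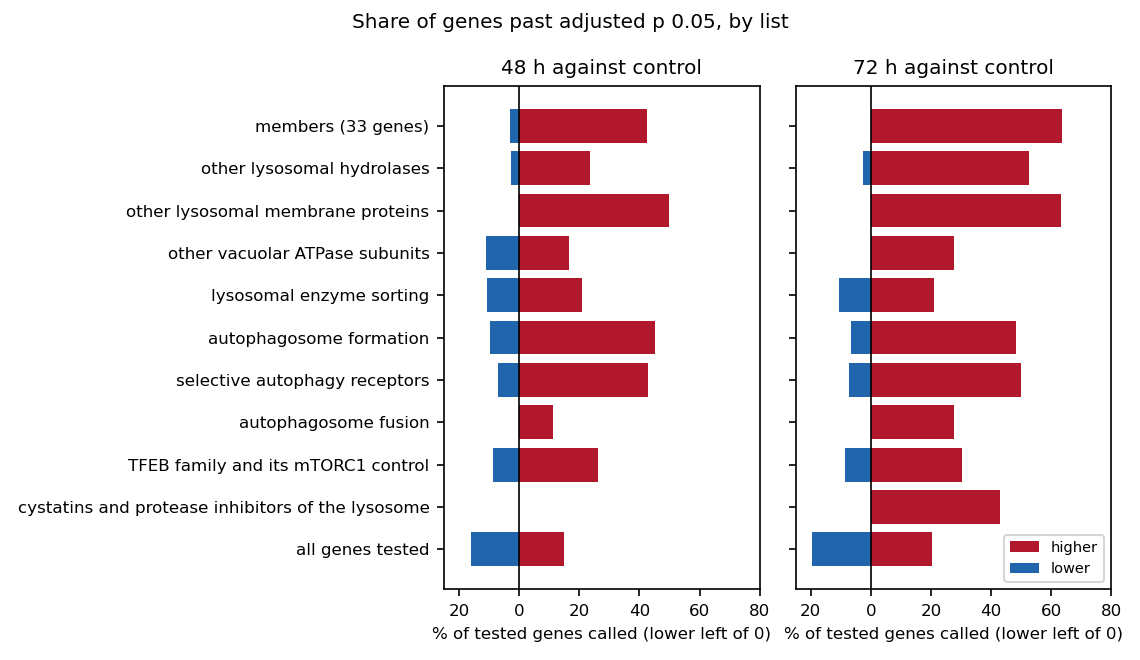
Share of tested genes with an adjusted p under 0.05 in each list, higher to the right of 0 and lower to the left, at 48 h and at 72 h against control. The 33 genes are the top row with 42.4% higher at 48 h and 63.6% at 72 h, and all 15440 genes tested are the bottom row with 14.9% and 20.4% higher.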

How the data were processed

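The deposited values are raw read counts per gene, 1 file per library, which the authors made with STAR 2.5.2a, featureCounts 1.5.0-p1 and genome build hg38, per the submitters' processing notes. The annotation and the strand setting of the counting were not stated in any source used here, so reads from overlapping genes on opposite strands may not be told apart. Of 58233 Ensembl identifiers, 57895 matched GENCODE v29 and gave gene symbols, and the 338 others held at most 0.0202% of a library's counts. Counts were scaled by TMM, filtered with filterByExpr and tested in 1 edgeR 4.0.16 quasi-likelihood fit (R 4.3.3) over all 9 libraries with group as the only term, leaving 6 residual degrees of freedom. P-values were adjusted by Benjamini-Hochberg over all 15440 genes, with a threshold of 0.05. CPM uses the scaled library sizes, TPM the joined exon length, and the SE of a log2 fold change was approximated from its F statistic. A gene is called higher or lower when its adjusted p is under 0.05. Depth limits genes of a few CPM, and p-values cover the spread between these libraries.

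The alternatives were RLE and upper-quartile factors, no filter on low counts, a minimum of 1 CPM in 3 libraries, passage as a block, a fit of the 2 compared groups alone, DESeq2 1.42.0 and leaving out each of the 6 compared libraries in turn, 13 in all for each comparison. Replicate numbers mark the same passage in each group, per the labels. Deviations from the group means of same-passage libraries had correlations of 0.11, 0.08 and 0.12 at 48 h and control, of 0.04, 0.11 and 0.10 at 72 h and control, and of -0.03, 0.49 and 0.49 at 72 h and 48 h. The fitting script was tested on simulated counts. The 33 genes, the wider lists and the motif were chosen with earlier results of these data known. Every one of the 33 genes is accounted for. Those past the threshold, up to 5 in a role, and LAMP1, LAMP2, CTSB, CTSD, CTSL, SQSTM1, MAP1LC3B and TFEB are given in each library, and CTSH was added after its values were seen. From each wider list up to 3 genes are named, those of largest mean change that were called at 48 h and again at 72 h and averaged 1 CPM or more. One such gene is not reported here.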

Additional observations from a re-analysis of the deposited data

How the results depend on the processing

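Of the 14 genes higher at 48 h, 8 kept the call under all 13 alternatives (CTSF, CTSV, NEU1, LAMP2, NPC1, NPC2, SQSTM1 and WIPI1). Of the 21 higher at 72 h, 15 did. The number higher at 48 h lay between 14 and 20 under the other settings and between 8 and 13 with 1 library left out, and at 72 h between 20 and 23 and between 16 and 21. Leaving out 1 library gave 2631 to 3920 calls over all genes at 48 h, and the other settings gave 4773 to 6161. At 72 h these ranges were 4111 to 6004 and 5651 to 6533. Genes of the 33 called lower at 48 h numbered 2 in the fit of the 2 groups alone and with DESeq2, and 0 to 1 with 1 library left out. At 72 h 1 was lower with no filter, and 0 to 1 with 1 library left out. At 72 h against 48 h the number over all genes was 211 with no filter and 50 with DESeq2. The cause was not tested.

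With passage as a replicate block, 17 genes were higher at 48 h and 21 at 72 h, since LIPA, LAMP1 and SCARB2 passed at 48 h, and no other call among the 33 changed. With 1 library left out, the log2 fold change of uncalled genes changed sign in CTSS at 48 h (-0.77 to 0.24) and at 72 h (-0.20 to 0.82), in GABARAPL1 at 48 h (-0.045 to 0.45) and in CTSD at 72 h (-0.16 to 0.31). The calls of GUSB at 48 h and LIPA at 72 h were lost with no filter, and that of HEXA at 72 h in the fit of 2 groups alone. CTSS lay between 0.697 and 3.20 CPM, so depth limits its value. Among genes not called, MAP1LC3B passed as higher at 72 h with upper-quartile factors, with no filter, and without 72 h replicate 1 or 3, GABARAPL1 with no filter, CTSZ with upper-quartile factors and ASAH1 without 72 h replicate 1. At 48 h LAMP1, SCARB2, LIPA, MCOLN1, ATP6V0D1 and ATP6V1H passed as higher in the fit of 2 groups alone, the first 3 and ATP6V0D1 also with DESeq2. LAMP1, SCARB2 and MCOLN1 also passed at 48 h with no filter, and LAMP1 without 48 h replicate 2. SCARB2 did so with RLE factors too, and SCARB2 and ATP6V0D1 with upper-quartile factors. CTSH passed as lower at 48 h with DESeq2, with no filter and in the fit of 2 groups alone, and at 72 h with no filter and without 72 h replicate 3.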

Other observations

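Lists of genes that act around the lysosome were counted in the same way. Over all genes tested, 14.9% were higher and 16% lower at 48 h, and 20.4% were higher and 19.4% lower at 72 h. Of 19 genes of lysosomal enzyme sorting tested, 4 were higher and 2 lower at 48 h and likewise at 72 h, with a median log2 fold change of -0.01 at 48 h and -0.02 at 72 h. The 4 at 48 h became 2 without control replicate 2 or 3 or 48 h replicate 1. CLN6 and CLN8, whose proteins act together in the endoplasmic reticulum to load lysosomal enzymes for export, went in opposite directions. CLN6 averaged 12.4 ± 3.74 CPM at 48 h, 10.6 ± 4.80 CPM at 72 h and 37.8 ± 0.972 CPM in controls (SD, n = 3 each), with a log2 fold change of -1.60 ± 0.31 (SE) at 48 h (edgeR, adjusted p = 0.00528) and -1.83 ± 0.31 at 72 h (adjusted p = 0.0022). CLN8 averaged 48.3 ± 4.78 CPM at 48 h, 38.2 ± 4.32 CPM at 72 h and 22.4 ± 1.09 CPM in controls, with a log2 fold change of 1.11 ± 0.13 at 48 h (adjusted p = 0.000839) and 0.77 ± 0.13 at 72 h (adjusted p = 0.00215). Both genes kept these calls under all alternatives run. IGF2R, the mannose 6-phosphate receptor, rose by 0.80 ± 0.19 at 48 h, a call lost without 48 h replicate 1 or control replicate 2 or 3, and by 0.81 ± 0.19 at 72 h.

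In the list of TFEB relatives and the mTORC1 genes that control them, 6 of 23 tested were higher and 2 lower at 48 h, and 7 were higher and 2 lower at 72 h (median 0.15 and 0.24). For this list and the 2 that follow, the shares of all genes were 14.9% higher and 16% lower at 48 h. At 72 h they were 20.4% and 19.4%. The 6 became 3 without control replicate 1 or 2 or 48 h replicate 1 or 3, the 2 lower at 48 h became 1 without any 1 control or 48 h replicate 1 and 3 without 48 h replicate 3, and the 2 lower at 72 h became 4 without 72 h replicate 1. TFE3, the relative of TFEB, averaged 56.5 ± 7.78 CPM at 48 h, 64.2 ± 8.02 CPM at 72 h and 32.4 ± 1.51 CPM in controls, with a log2 fold change of 0.80 ± 0.14 at 48 h and 0.98 ± 0.14 at 72 h. RRAGC, a Rag GTPase that recruits mTORC1 and TFEB to the lysosome, rose by 0.67 ± 0.16 at 48 h and 0.72 ± 0.16 at 72 h. RRAGB, another Rag GTPase, rose by 0.94 ± 0.31 at 48 h and 0.87 ± 0.31 at 72 h, calls lost without any 1 control at either time. The RRAGB call at 48 h was also lost without 48 h replicate 1 or 3. That at 72 h was also lost in the fit of 2 groups alone and without 72 h replicate 3 (0.47 at 72 h without it, adjusted p = 0.153). Of 18 genes of autophagosome fusion tested, 2 rose at 48 h, or 5 without 48 h replicate 3, and 5 at 72 h. VPS16, of the tethering complexes CORVET and HOPS, rose by 0.54 ± 0.12 at 48 h and 0.47 ± 0.12 at 72 h, the second call lost without control replicate 3 and with no filter on low counts. Of 7 cystatins and other inhibitors of lysosomal proteases tested, none passed at 48 h and 3 rose at 72 h, or 1 without control replicate 1 or 2.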
